A study of Mus musculus with 8 samples.

Results

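MHC class I antigen presentation in a mouse fibroblastic reticular cell (FRC) line was described through 10 genes, taken by symbol from the 55367 genes of the count table. They were the heavy chains H2-K1 and H2-D1, the light chain B2m, the peptide transporter genes Tap1 and Tap2, the tapasin gene Tapbp, the immunoproteasome genes Psmb8, Psmb9 and Psmb10, and the transcriptional regulator Nlrc5. Of the 10 genes, 9 had at least 10 counts in at least 3 of the 8 libraries and were tested among 12137 genes, and Nlrc5 was not. RNA was measured as poly(A) RNA-seq after 4 days, with 2 libraries per condition. The conditions were RPMI conditioned by B16.F10 melanoma cells (tumor-conditioned medium, TCM), RPMI conditioned by FRCs (control-conditioned medium, CCM), RPMI with 15 mmol/L lactic acid (LA), and RPMI with the same amount of water (vehicle). All 4 conditions used 1 line, which the study derived from lymph nodes of C57BL/6 mice carrying p53 ER/ER, and all media received serum and penicillin-streptomycin. The study calls the libraries of a condition biological replicates of this line, and the labels do not say whether they came from separate cultures, so P values measure the spread between these libraries.

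Class I molecules show peptides from inside the cell to CD8+ T cells. The proteasome cuts proteins into peptides, TAP carries the peptides into the endoplasmic reticulum, tapasin holds an empty class I molecule close to TAP, and the loaded complex of heavy chain, B2m and peptide moves to the cell surface. Interferons are known to raise most of these genes, through STAT and IRF factors and through NLRC5, which acts at class I promoters. FRCs are the stromal cells that form the conduit network of the lymph node and present antigen to T cells there.

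Total counts ranged from 8232889 to 14107964 per library, and 3 counts, taken as the floor of detection, corresponded to 0.211 to 0.354 CPM, the count of a gene scaled to the same library total. Reads carried no molecular identifiers, and the floors hold for counting error alone. The TCM pair stood apart from the other pairs: over all genes, chi-square divided by its degrees of freedom was 19.8 between its libraries, against 3.28 for CCM, 4.82 for vehicle and 7.32 for LA. Of 12 FRC markers, 8 were tested, among them Pdpn, Pdgfra, Pdgfrb and Vcam1, whereas Ccl19 and Ccl21a had at most 1 count in any library and Thy1 and Icam1 were too low to test. With TCM against CCM 1 of the 8 was called higher and 1 lower, beside 8.83% of all genes tested called higher and 10.2% lower. Of 7 melanoma markers, 4 never exceeded 3 counts and Tyrp1 had 6 and 3 counts in the TCM libraries and 0 in all others. Dct had 1 count in each TCM library and 0 in all others. The summed level of the 7 was 2.29 to 2.63 CPM in TCM and 1.81 to 3.03 CPM in CCM. Most of that sum was Pmel and Mitf, which had counts in all 8 libraries. Of 10 leukocyte markers, 7 had 0 counts in every library, Ptprc, Cd3e and Itgam among them, and the sum of the list, nearly all of it Lyz2, was 14.4 to 23 CPM in TCM and 15.1 to 16 CPM in CCM. Of the endothelial and of the epithelial markers 1 each fell with TCM and none rose, and the summed levels were 2.63 to 2.83 CPM and 0.631 to 0.872 CPM in TCM, against 4.13 to 4.68 CPM and 2.19 to 3.15 CPM in CCM. The part of these RNAs in the differences below was not tested.

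On chromosome 17 of GRCm38, which carries 7 of the 10 genes, the annotation (GENCODE M21) placed Psmb9 at chr17:34181987-34187764 on the minus strand, and Tap1 at chr17:34187553-34197225, Psmb8 at chr17:34197721-34201454 and Tap2 at chr17:34203527-34216321 on the plus strand. Tapbp was at chr17:33915899-33929292, H2-K1 at chr17:33996017-34000347 on the minus strand and H2-D1 at chr17:35262730-35267499. B2m was at chr2:122147686-122153083, Psmb10 at chr8:105935735-105938444 on the minus strand and Nlrc5 at chr8:94434356-94527272. All members but H2-K1 and H2-D1 overlapped a gene model on the other strand, with Psmb9 and Tap1 overlapping each other and Patl2 overlapping B2m. Whether the counting used strand is not given in the sources used here, and without strand reads of such partners cannot be told apart from those of the members. H2-K1 and H2-D1 belong to a family of related genes that share part of their sequence. Of all 50-base windows in the longest coding transcript of each, 8.79% of those of H2-K1 and 14.3% of those of H2-D1 also occurred in a transcript of another gene. For B2m, Psmb10 and Nlrc5 that share was 0%.

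Promoter sequences show what the members had in common upstream of their starts. RefSeq promoters on GRCm38.p6 were matched for 8 of the 10 genes, Tap2 and Nlrc5 being the others. The bases upstream of the RefSeq start are shown for both heavy chains and for B2m. For Psmb9 and Tap1 the stretch between their divergent RefSeq starts is shown. RefSeq and GENCODE starts are not always the same. The bases shown for H2-D1 lie inside its GENCODE model given above, and the stretch between Psmb9 and Tap1 lies inside that of Psmb9. Motif distances below are counted from the RefSeq starts. Capitals mark the letters found by searching both strands for GAANNGAAA and GAAANNGAA (spacings of the interferon response motif, which can overlap each other), TTCNNNGAA (the STAT motif), GGGNNTTCC (the NF-kappaB motif) and CCAAT. The 250 bases of H2-K1, before the more distal of its 2 RefSeq starts, lie at chr17:34000348-34000597, those of H2-D1 at chr17:35262844-35263093 and those of B2m at chr2:122147437-122147686, each written 5′ to 3′ on the strand of the gene, and the 225 bases between Psmb9 and Tap1 lie at chr17:34187331-34187555, written on the Tap1 strand.
H2-K1: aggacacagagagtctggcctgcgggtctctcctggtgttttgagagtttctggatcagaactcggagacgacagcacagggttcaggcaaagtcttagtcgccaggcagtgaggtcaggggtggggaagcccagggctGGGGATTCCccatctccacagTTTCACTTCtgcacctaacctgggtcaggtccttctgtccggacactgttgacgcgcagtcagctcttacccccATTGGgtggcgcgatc
H2-D1: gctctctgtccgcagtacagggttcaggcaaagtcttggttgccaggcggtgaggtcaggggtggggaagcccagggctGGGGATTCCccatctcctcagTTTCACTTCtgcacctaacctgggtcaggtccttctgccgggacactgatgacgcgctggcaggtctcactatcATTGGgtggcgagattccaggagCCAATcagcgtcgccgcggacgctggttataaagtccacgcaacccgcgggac
B2m: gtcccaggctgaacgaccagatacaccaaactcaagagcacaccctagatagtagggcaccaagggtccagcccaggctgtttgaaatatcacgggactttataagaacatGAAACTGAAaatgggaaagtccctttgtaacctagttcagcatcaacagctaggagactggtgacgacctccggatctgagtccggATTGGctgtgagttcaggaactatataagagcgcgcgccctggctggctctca
Psmb9 and Tap1: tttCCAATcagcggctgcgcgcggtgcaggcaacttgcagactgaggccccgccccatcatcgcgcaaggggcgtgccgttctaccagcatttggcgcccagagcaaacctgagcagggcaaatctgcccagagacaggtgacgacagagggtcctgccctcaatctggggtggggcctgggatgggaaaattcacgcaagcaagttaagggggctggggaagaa

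In both heavy chains the match to GGGNNTTCC was followed by a match to GAANNGAAA on the other strand, 111 to 82 bases before the start in H2-K1 and 171 to 142 bases before it in H2-D1, and the longest run of letters that the 2 upstream sequences shared was 47 bases. Of the 8 members matched, GAAANNGAA was found in B2m alone and TTCNNNGAA in Psmb8 alone, and Tap1, Tapbp, Psmb9 and Psmb10 held none of the 4 motifs other than CCAAT. GAANNGAAA was found upstream of 6.31% of all 32851 promoters of the table, GAAANNGAA of 7.13%, TTCNNNGAA of 7.02%, GGGNNTTCC of 4.98% and CCAAT of 33.8%. CCAAT was found in 6 of the 8 members matched. A match describes these letters and not a site of binding.

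To ask how tumor-conditioned medium changed class I presentation in FRCs, TCM was compared with CCM. Of the 9 genes tested, 7 rose with TCM and none fell: H2-K1, H2-D1, B2m, Tap1, Tap2, Psmb8 and Psmb9. Calls needed a log2 fold change (log2 FC) beyond 0.39 and an adjusted P under 0.05 in edgeR's quasi-likelihood test. By that rule 19.1% of all genes tested were called in this comparison, 8.83% higher and 10.2% lower. The median log2 FC was 0.76 over the 9 genes and 0.00 over all genes. In all 9 genes both TCM libraries lay above both CCM libraries, which 27.8% of all genes did. In RNA from whole cultures, fewer cells of a kind and less RNA per cell cannot be told apart.

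**Figure D1:**
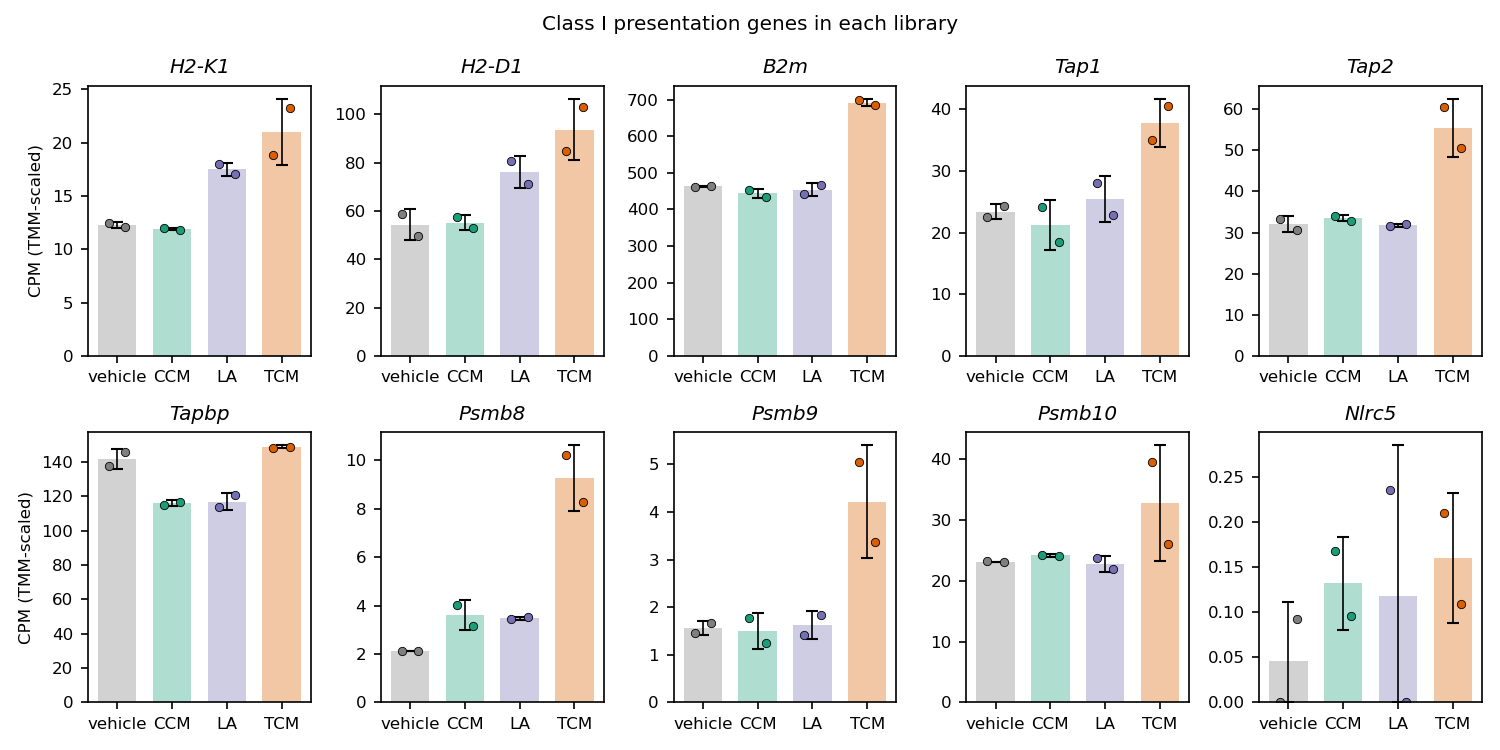
CPM, on TMM-scaled libraries, of the 10 class I genes in each of the 8 libraries (points), with the mean (bars) and SD (error bars) of the 2 libraries of each condition, on a linear axis from 0. For 9 genes both TCM points lie above both CCM points. H2-K1, H2-D1 and Psmb8 also have both LA points above both vehicle points, and Nlrc5 stays under 0.25 CPM throughout.

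The heavy chains bind the peptide and carry the residues read by the T cell receptor. H2-K1 was at 12.5 and 12.1 CPM in the vehicle libraries, 12.0 and 11.8 CPM in CCM, 18.0 and 17.1 CPM in LA, and 18.8 and 23.2 CPM in TCM. H2-D1 was at 58.8 and 49.8 CPM in vehicle, 57.5 and 52.9 CPM in CCM, 80.7 and 71.3 CPM in LA, and 84.7 and 103 CPM in TCM. Vehicle and CCM were alike for both genes, LA lay above both of them and TCM above LA, with no overlap between LA and TCM although the lower TCM library was close to LA. With TCM against CCM the log2 FC was 0.82 ± 0.142 (SE, adjusted P = 0.00211) for H2-K1 and 0.76 ± 0.128 (adjusted P = 0.00171) for H2-D1. TCM against LA gave 0.26 ± 0.137 (adjusted P = 0.216) for H2-K1 and 0.31 ± 0.126 (adjusted P = 0.123) for H2-D1, which did not pass, with 95% intervals from -0.04 to 0.57 and from 0.03 to 0.58.

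B2m is the invariant light chain of classical class I molecules. It stood at 461 and 464 CPM in vehicle, 453 and 435 CPM in CCM, 442 and 467 CPM in LA, and 699 and 685 CPM in TCM. The TCM libraries were above all others, LA overlapped vehicle and CCM, and both CCM libraries were slightly below both vehicle libraries. B2m rose with TCM by a log2 FC of 0.64 ± 0.0930 (adjusted P = 0.000698), which is 55.8%. Per length it was the most abundant member in all conditions, at 516 ± 14.9 RPKM (CPM per kilobase of exon, SD, n = 2) in CCM and 805 ± 11.8 RPKM in TCM, against 21.4 ± 1.27 and 36.3 ± 4.92 RPKM for H2-D1 and 4.05 ± 0.0295 and 7.16 ± 1.05 RPKM for H2-K1. The ratio of H2-K1 to H2-D1 per length was 18.9% in CCM and 19.7% in TCM. Lengths were those of all annotated exons of a gene, 2938 bases for H2-K1 and 2579 for H2-D1. Their longest coding transcripts had 1619 and 2102 bases. The size of a ratio between genes, here and below, depends on that choice, whereas its change between conditions does not.

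Peptide supply to the endoplasmic reticulum depends on both chains of the transporter. Tap1 was at 22.5 and 24.3 CPM in vehicle, 24.2 and 18.4 CPM in CCM, 28.1 and 22.8 CPM in LA, and 35 and 40.6 CPM in TCM. Tap2 was at 33.4 and 30.6 CPM in vehicle, 34.0 and 32.9 CPM in CCM, 31.5 and 32.1 CPM in LA, and 60.5 and 50.6 CPM in TCM. For both genes the TCM libraries were above the other 6. Tap1 rose with TCM by 0.82 ± 0.155 (adjusted P = 0.00360) and Tap2 by 0.73 ± 0.115 (adjusted P = 0.00119) on the log2 scale.

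Tapbp, which encodes the tapasin bridge between TAP and the heavy chain, had a different order. Its level was 138 and 146 CPM in vehicle, 115 and 117 CPM in CCM, 114 and 121 CPM in LA, and 148 and 149 CPM in TCM. Vehicle and TCM were the high conditions and CCM and LA the low ones, and TCM lay only just above the higher vehicle library. The log2 FC with TCM was 0.36 ± 0.0879 against CCM (adjusted P = 0.0135, under the fold threshold) and 0.07 ± 0.0877 against vehicle (adjusted P = 0.615). CCM against vehicle gave -0.29 ± 0.0879 (adjusted P = 0.148). In the annotation the Tapbp locus also holds Zbtb22 on the same strand and an antisense gene, Gm19412, which shared 19% of the 50-base windows.

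The immunoproteasome subunits replace the constitutive catalytic subunits and change which peptides are cut. Psmb8 was at 2.12 and 2.12 CPM in vehicle, 4.04 and 3.15 CPM in CCM, 3.43 and 3.52 CPM in LA, and 10.2 and 8.28 CPM in TCM. Psmb9 was lower, at 1.45 and 1.66 CPM in vehicle, 1.77 and 1.24 CPM in CCM, 1.42 and 1.83 CPM in LA, and 5.05 and 3.38 CPM in TCM. In both genes the TCM libraries stood clear of the rest, and the CCM and LA levels of Psmb8 were also above vehicle.

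These 2 genes had the largest log2 FC of the members with TCM, 1.35 ± 0.213 for Psmb8 (adjusted P = 0.00115) and 1.47 ± 0.317 for Psmb9 (adjusted P = 0.00747). They were also the least abundant of the genes tested: Psmb8 had 48 and 33 counts in CCM and 97 and 76 counts in TCM, and Psmb9 had 21 and 13 counts in CCM and 48 and 31 counts in TCM. Without the second CCM library the log2 FC of Psmb9 was 1.25 and was not called, in a fit that leaves 1 CCM library. Part of Psmb9 overlaps Tap1, and 12.5% of its 50-base windows also lay in Tap1 on the other strand.

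The third subunit, Psmb10, was at 23.2 and 23.1 CPM in vehicle, 24.3 and 24.1 CPM in CCM, 23.7 and 21.9 CPM in LA, and 39.5 and 26.1 CPM in TCM. One TCM library was far above the other, which was close to the control libraries. The log2 FC of 0.44 ± 0.167 did not pass the test (adjusted P = 0.0884). It was 0.71 (adjusted P = 0.000677) without the second TCM library and 0.11 (adjusted P = 0.610) without the first, so 1 library decided its size.

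The TCM pair differed in the same way for other proteasome genes. The constitutive catalytic subunits Psmb5, Psmb6 and Psmb7 had 63.1, 214 and 226 CPM in the first TCM library and 37.4, 150 and 154 CPM in the second. H2-K1, H2-D1 and Tap1 had the opposite order, with the second TCM library the higher. All 7 members kept their call without either TCM library, and Psmb10 joined them without the second: without the first, their log2 FC lay between 0.59 for Tap2 and 1.19 for Psmb8, and without the second between 0.62 for H2-D1 and 1.73 for Psmb9.

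Each subunit was therefore set against its constitutive counterpart within a library, per length. The ratio of Psmb8 to Psmb5 was 1.40% and 1.31% in vehicle, 2.84% and 2.10% in CCM, 2.17% and 2.05% in LA, and 4.30% and 5.89% in TCM. For Psmb9 to Psmb6 it was 0.454% and 0.555% in vehicle, 0.624% and 0.415% in CCM, 0.442% and 0.564% in LA, and 1.20% and 1.15% in TCM. The TCM libraries were above the other 6 in both ratios. Psmb10 to Psmb7 was 28.2% and 28.8% in vehicle, 30.2% and 27.2% in CCM, 28.5% and 27.8% in LA, and 35% and 34% in TCM, where the 2 TCM libraries, apart in CPM, were close to each other. The ratios were not tested.

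**Figure D2:**
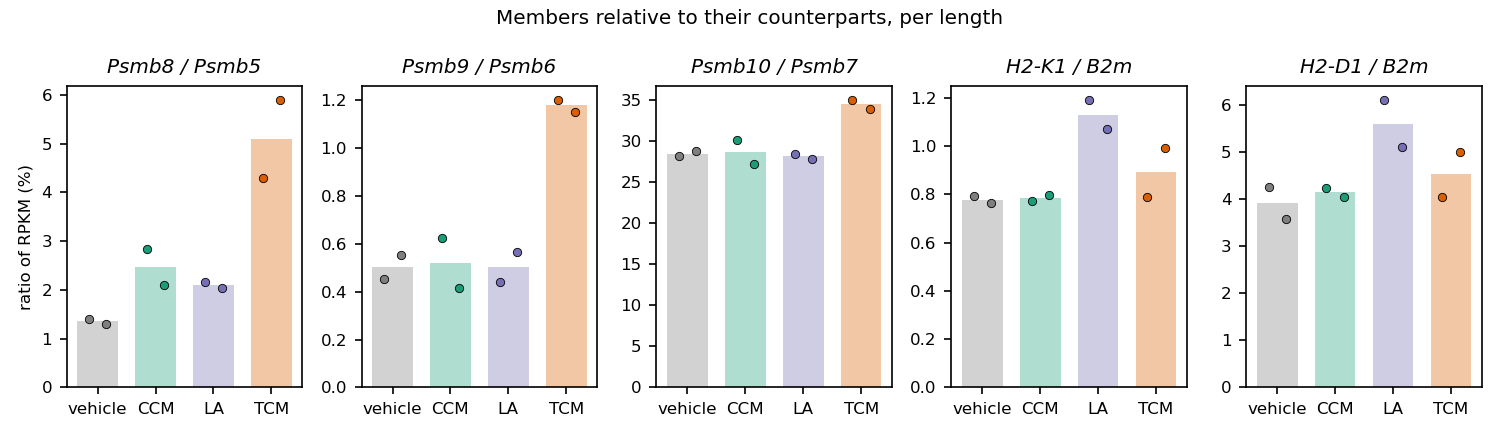
Ratio of RPKM in percent, on linear axes from 0, of each immunoproteasome subunit to its constitutive counterpart and of the heavy chains to B2m, in each library (points) and as the mean of the 2 libraries of a condition (bars). The proteasome ratios are highest in TCM, with means of 5.10%, 1.18% and 34.5%, and the ratios of H2-K1 and H2-D1 to B2m are highest in LA, with means of 1.13% and 5.59%.

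Nlrc5, the class I transactivator, was barely detected. It had 0 and 1 counts in vehicle, 2 and 1 in CCM, 2 and 0 in LA, and 2 and 1 in TCM, all at or under the floor of 3 counts, so no fold change is given. A difference in Nlrc5 was not detectable at this depth.

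To ask what LA alone did, LA was compared with vehicle. No member was called, by edgeR or by DESeq2, among 2.55% of all genes called. In edgeR 4 of the 9 had an unadjusted P value under 0.05: H2-K1, H2-D1, Tapbp and Psmb8. By that value H2-D1 ranked 463, H2-K1 561, Tapbp 777 and Psmb8 1133 of all genes tested. At least 1133 genes therefore had such a value in this comparison. The heavy chains came nearest, with a log2 FC of 0.51 ± 0.144 (42.3%, adjusted P = 0.102) for H2-K1 and 0.48 ± 0.129 (39.9%, adjusted P = 0.0826) for H2-D1. Psmb8 had 0.71 ± 0.268 (adjusted P = 0.239), and Tapbp had -0.27 ± 0.0880 (adjusted P = 0.155). In these 3 genes of positive log2 FC the LA libraries were both higher than either vehicle library, as in 23.7% of all genes, and in Tapbp both lay below, as in 24.2% of all genes.

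Calls of the heavy chains depended on how the spread was estimated. Leaving out either TCM library, which does not enter this comparison, moved the adjusted P value of H2-D1 to 0.00962 and 0.00960 and that of H2-K1 to 0.0306 and 0.0315, with the same log2 FC. Over all alternatives the log2 FC of H2-D1 lay between 0.37 and 0.61, with adjusted P values from 0.00357 to 0.475, and that of H2-K1 lay between 0.48 and 0.55, with adjusted P values from 0.0306 to 0.426. B2m, Tap1, Tap2, Psmb9 and Psmb10 had a log2 FC between -0.03 and 0.11 with LA, and their libraries overlapped. The 95% interval of B2m, from -0.23 to 0.18, was the narrowest of them and that of Psmb9, from -0.72 to 0.90, the widest.

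The heavy chains were also set against the light chain. H2-K1 to B2m per length was 0.793% and 0.763% in vehicle, 0.772% and 0.796% in CCM, 1.19% and 1.07% in LA, and 0.789% and 0.992% in TCM. H2-D1 to B2m was 4.25% and 3.58% in vehicle, 4.23% and 4.05% in CCM, 6.09% and 5.10% in LA, and 4.04% and 5.0% in TCM. LA was the highest condition for both ratios and did not overlap the other conditions. The lower LA library was close to the higher TCM library, at 1.07% against 0.992% for H2-K1 and 5.10% against 5.0% for H2-D1. These ratios were not tested.

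The difference between the TCM effect, taken against CCM, and the LA effect, taken against vehicle, was then tested itself. It was called for 3 of the 9 genes, all higher with TCM, where 10.4% of all genes were called and 4.45% higher. Tap2 had a difference of 0.74 ± 0.166 (adjusted P = 0.0166) on the log2 scale, B2m of 0.67 ± 0.131 (adjusted P = 0.00801) and Tapbp of 0.64 ± 0.124 (adjusted P = 0.00765). For Tapbp the difference joined an increase against a low CCM level with a negative LA value. For H2-K1 the difference was 0.31 ± 0.203 (adjusted P = 0.384) and for H2-D1 0.28 ± 0.181 (adjusted P = 0.382), with 95% intervals from -0.14 to 0.76 and from -0.12 to 0.68. Tap1 was not called either, at 0.72 ± 0.222 (adjusted P = 0.0666), a value between those of B2m and Tap2. Its interval ran from 0.23 to 1.21. The intervals of Psmb9, from 0.30 to 2.46, and of Psmb8, from -0.13 to 1.41, were wide as well. Those of Tap1 and Psmb9 lay above 0, so a missing call does not set these genes apart from the called ones. Leaving out 1 CCM library ended most of these calls: none of the 9 was called without the first CCM library and 1 without the second, and 5 were called without the second TCM library.

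**Figure D3:**
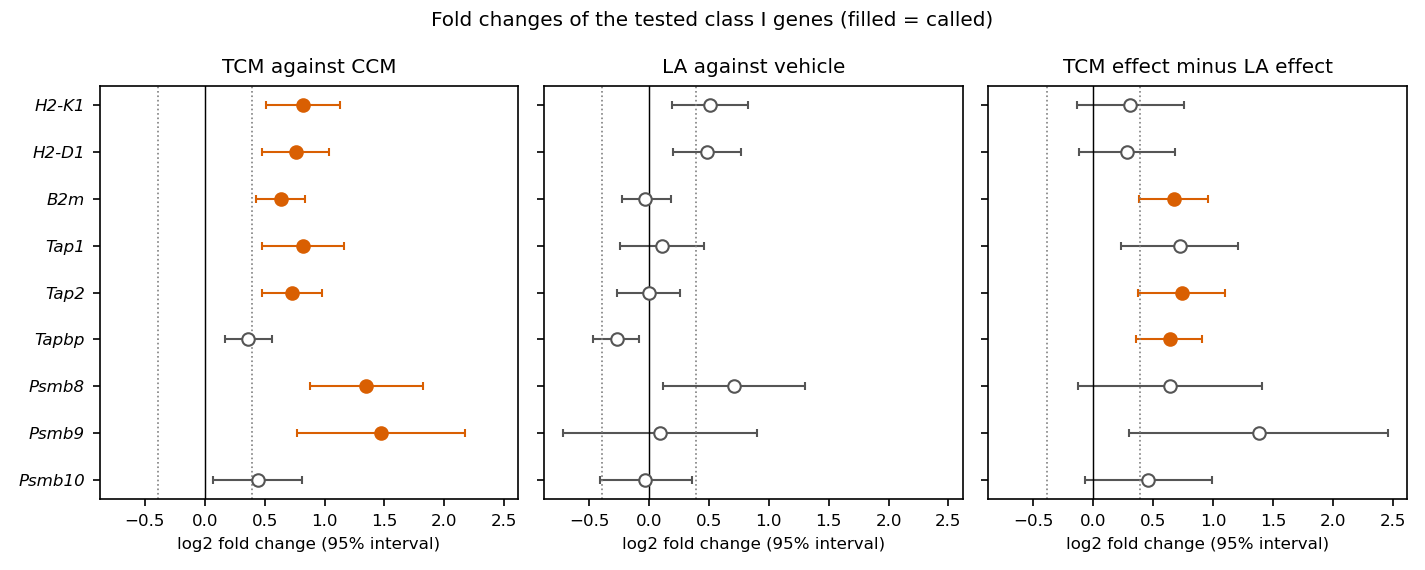
log2 FC (points) with 95% intervals (bars) of the 9 tested class I genes for TCM against CCM, LA against vehicle and the TCM effect minus the LA effect. Filled points were called, and dotted lines mark the fold threshold of 0.39. With TCM 7 of 9 points are filled, with LA none, and in the difference B2m, Tap2 and Tapbp.

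The controls were compared with each other to see whether conditioning by FRCs moved the genes. In CCM against vehicle none of the 9 was called by edgeR or DESeq2, among 1.30% of all genes, and 2 had an unadjusted P value under 0.05. They were Psmb8, with a log2 FC of 0.76 ± 0.266 (adjusted P = 0.221), and Tapbp. By unadjusted P value Psmb8 ranked 829 and Tapbp 566 of all 12137 genes. Against vehicle in place of CCM, 7 genes were called higher with TCM, where 17.5% of all genes were called and 8.58% higher, and Psmb8 then had a log2 FC of 2.12 ± 0.238 (adjusted P = 0.000175). Against LA, 5 genes were called higher with TCM, B2m, Tap1, Tap2, Psmb8 and Psmb9, where 16.1% of all genes were called and 8.34% higher. LA against CCM called none by edgeR or DESeq2, among 0.626% of all genes, with 2 genes, H2-K1 and H2-D1, at an unadjusted P value under 0.05. By that value H2-K1 ranked 212 and H2-D1 283 of all genes. These comparisons share libraries and are given side by side only.

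Across the 8 libraries most pairs of the 9 genes varied together. Over their 36 pairs the median Pearson r of log2 CPM was 0.77, 30 pairs were above 0.5 and none was below 0, values that share the contrast of TCM with the rest. The lowest were those of Tapbp with H2-D1 (0.29), H2-K1 (0.34) and Psmb8 (0.36), and all 6 pairs not above 0.5 held Tapbp or Psmb10. The mean of the 9 standardised levels was 1.5 and 1.27 in the TCM libraries, -0.23 and -0.29 in LA, and between -0.78 and -0.47 in vehicle and CCM. The genes whose log2 CPM was most like that mean over the 8 libraries were P3h4, Pigt, Grb14, Dnajb4 and Kcnab3, with r from 0.987 to 0.989, a likeness chosen from all 12137 genes. No such list was made for Nlrc5, which was too low.

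The rest of the pathway was followed in 8 lists with 82 genes, of which 63 were tested. With TCM against CCM 8 of them rose and 6 fell, or 22.2% called beside 19.1% of all genes. Of all genes, 8.83% were called higher and 10.2% lower. With LA against vehicle 3 rose and none fell, or 4.76% beside 2.55%. In CCM against vehicle 1 was called, Ulbp1, or 1.59% beside 1.30%.

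Around the proteasome, 2 of 9 genes rose with TCM, beside 8.83% of all genes. They were Psme1 and Psme2, which encode the PA28 activator that opens the proteasome. Psme1 was at 59.9 and 63.3 CPM in CCM and 120 and 92.9 CPM in TCM, with a log2 FC of 0.79 ± 0.123 (adjusted P = 0.00103). Psme2 was at 67.3 and 77.6 CPM in CCM and 127 and 91.6 CPM in TCM, with 0.59 ± 0.151 (adjusted P = 0.0173), and was not called without the first TCM library (0.34, adjusted P = 0.0571) or the first CCM library (0.49, adjusted P = 0.151). Both again had the first TCM library higher. The constitutive subunits did not pass the test, with a log2 FC of 0.37 for Psmb5, 0.29 for Psmb6 and 0.16 for Psmb7 and adjusted P values from 0.168 to 0.476. Without the second TCM library all 3 were called higher, and without the first the values were -0.06, 0.01 and -0.14.

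None of the 8 chaperone and trimming genes of the endoplasmic reticulum was called with TCM by edgeR or DESeq2. Of these, 3 had an unadjusted P value under 0.05. Such values were common in this comparison: Psmb10, at an unadjusted P of 0.0240 in edgeR, ranked only 3293 of all 12137 genes. Erap1, which trims peptides to class I length, had a log2 FC of 0.42 ± 0.140 (adjusted P = 0.0560), with 0.59 (adjusted P = 0.00544) without the first TCM library and 0.22 (adjusted P = 0.248) without the second. Pdia3, the partner of tapasin, had 0.26 ± 0.110 (adjusted P = 0.121), Canx -0.02 and Calr 0.10, the last turning to -0.04 when counts were scaled by library size alone. None of the 6 cytosolic peptidases was called by either tool, and 1 had an unadjusted P value under 0.05. Of 19 class I heavy chains outside the 10 genes, 7 were tested, none was called with TCM by either tool and 5 had an unadjusted P value under 0.05. H2-T23, a nonclassical ligand of NK cell receptors, had 0.30 ± 0.118 (adjusted P = 0.0989).

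Among 18 transcription factors and interferon-STAT regulators 6 rose with TCM and 2 fell, beside 8.83% of all genes called higher and 10.2% lower. Stat2, part of the factor that type I interferon activates, was at 27.6 and 24 CPM in vehicle, 38.4 and 26.5 CPM in CCM, 38.5 and 49.5 CPM in LA, and 91.7 and 122 CPM in TCM. Both TCM libraries were far above all others. The log2 FC with TCM was 1.71 ± 0.192 (adjusted P = 0.000137) for Stat2 and 1.45 ± 0.154 (adjusted P = 0.000102) for Irf9, the DNA-binding part of that factor. Socs3, a feedback inhibitor of cytokine signalling, rose by 1.05 ± 0.151 (adjusted P = 0.000642). Socs1, of the same list, went the other way, at 3.28 and 3.53 CPM in CCM and 2.00 and 2.18 CPM in TCM.

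Irf9 was also called with LA, at 0.76 ± 0.162 (adjusted P = 0.0332), and was not called when any 1 vehicle or LA library was left out, with adjusted P values from 0.0722 to 0.294. It also lost its call without either CCM library (adjusted P = 0.0531 and 0.0530). The difference of the effects was not called for Irf9 (0.69 ± 0.223, adjusted P = 0.0766). Irf1, a factor known for class I promoters, was at 28.6 and 30.5 CPM in CCM and 32.6 and 28.9 CPM in TCM, which overlap, with a log2 FC of 0.06 ± 0.127 (adjusted P = 0.781) that turned to -0.08 on library size alone. Rfx5, a subunit of the RFX complex that binds class I and class II promoters, was at 24.8 and 26.6 CPM in CCM and 14.2 and 18.9 CPM in TCM and fell by 0.64 on the log2 scale (adjusted P = 0.0121), a call that ended without either CCM library (adjusted P = 0.0503 and 0.0861). Among 7 interferon receptors and kinases none rose and 2 fell, beside 10.2% of all genes called lower. Ifngr1 had a log2 FC of -0.41 (adjusted P = 0.0140) and Jak2 of -0.40 (adjusted P = 0.0379). Neither kept its call without either CCM library, with adjusted P values from 0.0873 to 0.224, and DESeq2 called 1 of the 7.

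**Figure D4:**
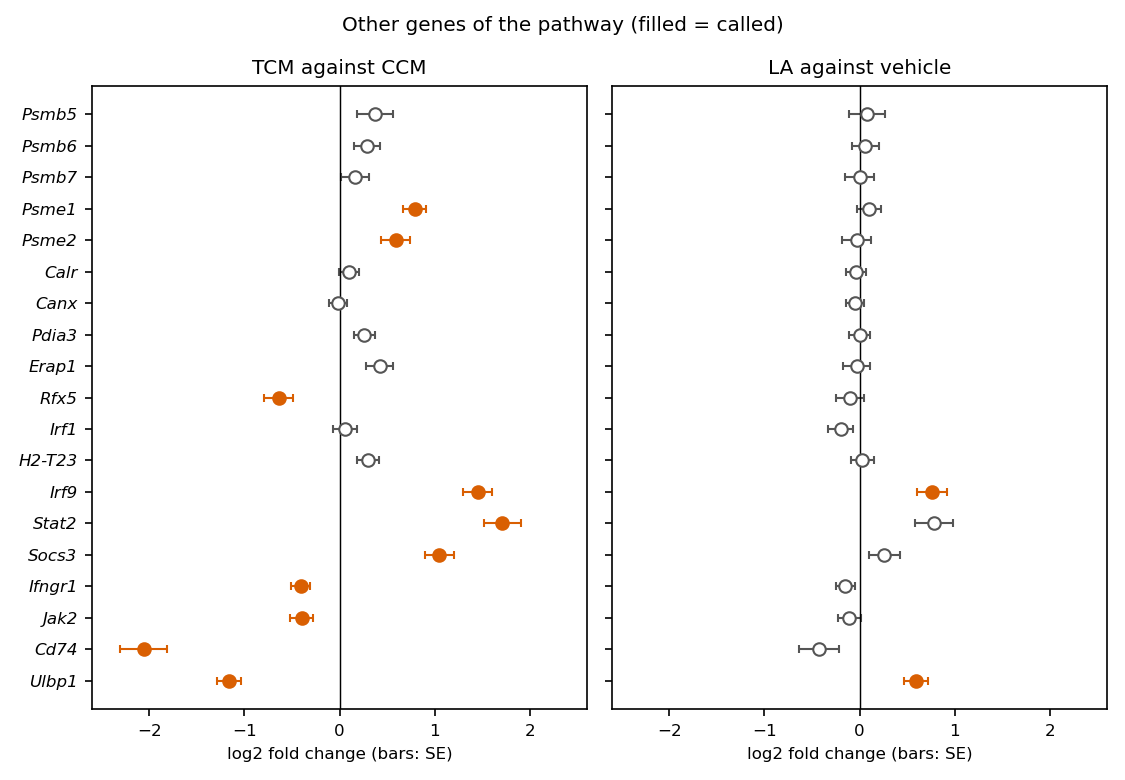
log2 FC (points) with SE (bars) of 19 named genes of the pathway outside the 10 members, for TCM against CCM and LA against vehicle. Filled points were called: 5 higher and 5 lower with TCM, and Irf9 and Ulbp1 higher with LA.

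Class II molecules show peptides to CD4+ T cells. Of 8 class II genes 3 were tested, and the transactivator Ciita had at most 1 count in a library. Cd74, the invariant chain, was at 5.91 and 6.93 CPM in vehicle, 7.75 and 7.06 CPM in CCM, 5.32 and 4.37 CPM in LA, and 2.00 and 1.53 CPM in TCM, and with TCM it fell by 2.06 on the log2 scale (adjusted P = 0.000210). The 2 others tested were not called and went opposite ways. H2-DMb1 was at 1.68 and 0.764 CPM in CCM and 2.63 and 2.51 CPM in TCM. H2-DMa was at 3.28 and 3.25 CPM in CCM and 2.42 and 2.73 CPM in TCM. Ulbp1, a ligand of the activating receptor NKG2D, was at 64.9 and 84.4 CPM in vehicle, 117 and 117 CPM in CCM, 116 and 110 CPM in LA, and 48.7 and 55.8 CPM in TCM. It was higher in CCM and LA than in vehicle (0.64, adjusted P = 0.0390, and 0.59, adjusted P = 0.0328) and lower in TCM than in CCM (-1.16, adjusted P = 0.000128). The CCM call ended without any 1 of the vehicle, CCM or LA libraries (adjusted P from 0.0561 to 0.324), and the LA call without the first vehicle library (0.42, adjusted P = 0.261) or any 1 of the CCM or LA libraries (adjusted P from 0.0660 to 0.189). The difference of its TCM and LA effects was -1.75 ± 0.180 (adjusted P = 0.000140). Of 5 ligands of T and NK cells tested, Ulbp1 was the only 1 called with TCM against CCM. Raet1e went the other way without a call, at 7.07 and 8.40 CPM in CCM and 10.6 and 11.2 CPM in TCM.

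Scaling moved the level of these values. When counts were scaled by library size alone, the median log2 FC of all genes with TCM against CCM moved from 0.00 to -0.14 and the share of calls that were higher from 46.3% to 24.2%, while the median of the 9 genes was 0.62 and 7 were called. Against LA 4 members were called with TCM in place of 5, and against vehicle 7 as before. The share of calls that were higher moved from 49.1% to 30.5% for TCM against vehicle, from 51.8% to 30.4% for TCM against LA and from 42.6% to 23.2% for the difference of effects. With 2 libraries against 2, an exact permutation test of a single gene cannot go below P = 0.333, so the P values above rest on the spread shared across all genes.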

How the data were processed

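Poly(A) RNA of 8 libraries was prepared with a directional kit, and per the labels and the methods of the study the authors aligned the reads to GRCm38 with STAR 2.7.0a and counted them per gene with featureCounts of Subread 2.0.1. The deposited values are whole-number counts without normalization. A second deposited table, named for normalized values, held the same counts for the 12137 genes tested here, and 0 columns were left unused. Genes that reached 10 counts in 3 or more libraries were fitted in R 4.3.3 with edgeR 4.0.16 (TMM, robust glmQLFit and glmQLFTest, a mean per condition over all 8 libraries), with Benjamini-Hochberg adjustment over 12137 genes. Alternatives were DESeq2 1.42.0, other scalings, filters, thresholds and libraries, and a replicate block. The fits were also run on simulated counts with the same spread per gene in all conditions, which does not cover the wider spread of the TCM pair. CPM used TMM-scaled library sizes, with factors from 0.938 to 1.04, and RPKM used exon lengths of GENCODE M21. Named genes were the 10 members, 13 preset counterparts and, from each list, up to 4 called genes of smallest adjusted P value. Members and lists were chosen with earlier results of these data known. A result of 1 listed gene, which stays in the list counts, is not reported here. The symbol Nrdc was matched as Nrd1. Promoter sequences came from RefSeq (GRCm38.p6). The common biological coefficient of variation was 9.03%.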

Additional observations from a re-analysis of the deposited data

Results flagged for a closer look

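For 3 genes the effect of TCM against CCM differed from that of LA against vehicle by a test of the difference itself (edgeR, 2 libraries per condition). B2m had a difference of 0.67 on the log2 scale (adjusted P = 0.00801), Tap2 of 0.74 (adjusted P = 0.0166) and Tapbp of 0.64 (adjusted P = 0.00765). For B2m and Tap2 the LA effect itself was near 0, at -0.03 and -0.00. For Tapbp it was -0.27, and vehicle and TCM were the high conditions. Without the first CCM library none of these calls passed, with adjusted P = 0.0506 for B2m, 0.0681 for Tap2 and 0.0584 for Tapbp.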

How the results depend on the processing

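The 7 members called with TCM against CCM numbered 7 under DESeq2, under DESeq2's size factors, on library size alone and with the replicate block, and 2 with a log2 FC beyond 1. Leaving out 1 library gave 6 to 8 members in that comparison, 5 to 8 of 7 for TCM against vehicle, 3 to 6 of 5 for TCM against LA, 0 to 5 of 3 for the difference of effects, 0 to 2 of 0 for LA against vehicle and for LA against CCM, and 0 to 0 for CCM against vehicle; the pathway lists gave 10 to 18 of 14, 3 to 14 of 6, 0 to 3 of 3 and 0 to 1 of 1 calls for TCM, the difference, LA and CCM. A log2 FC beyond 1 left 2 members for TCM against vehicle and against LA, 0 for the difference, and 7, 2, 0 and 0 pathway calls; beyond 0.68 it left 3 members for TCM against LA, 1 for the difference, and 9 pathway calls for TCM and 0 for CCM. Without a filter on low counts, and equally with only the libraries compared, LA against vehicle called 1 member and 5 pathway genes, LA against CCM 2 members and CCM against vehicle 2 pathway genes, and without the filter the difference called 10 pathway genes. The difference of effects could not be fitted with only the libraries compared, since it uses all of them.

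Same-numbered libraries did not deviate together in every pair of conditions (r from -0.242 for CCM with TCM to 0.353 for vehicle with LA), so the numbers were not taken as pairs. The fit with the replicate block called 7 members with TCM against CCM and 0 with LA, moved TCM against vehicle to 8 and TCM against LA to 6, and called 2367 genes in all with TCM against 2314. With the CCM numbers crossed, a fit chosen after seeing the data, LA called 1 member and 5 pathway genes, the difference 10 pathway genes, and 596 genes in all were called with LA.

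The sign of values near 0 turned in some fits. On library size alone Calr (-0.04) and Irf1 (-0.08) turned with TCM, and without the filter Tap2 with LA (0.00). With 1 library left out, values with TCM ranged from -0.06 to 0.70 for Psmb5, -0.14 to 0.42 for Psmb7 and -0.03 to 0.14 for Irf1. Those with LA ranged from -0.07 to 0.01 for B2m, -0.04 to 0.26 for Tap1, -0.07 to 0.06 for Tap2, -0.14 to 0.23 for Psmb9 and -0.08 to 0.04 for Psmb10, and those of CCM against vehicle from -0.10 to 0.15 for H2-D1, -0.35 to 0.04 for Tap1, 0.00 to 0.13 for Tap2 and -0.33 to 0.18 for Psmb9. The cause was not tested. Counts over all genes moved more: with LA 310 genes became 656 without the filter, 596 with crossed numbers and 57 to 617 with 1 library left out, in CCM against vehicle 158 became 584 without the filter, 679 with only the libraries compared and 0 to 497 with 1 library left out, and in LA against CCM 76 became 147 under DESeq2, 410 without the filter, 321 with only the libraries compared and 1 to 274 with 1 library left out. With TCM, 2314 became 1331 beyond 0.68, 760 beyond 1 and 1195 to 2864 with 1 library left out. At 13 to 48 counts in CCM and TCM, Psmb9 had the largest SE of the 7 members called with TCM.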
